A study of Mus musculus with 42 samples.

Results

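The data described here are the binding events of Hox transcription factors and their cofactors around 8 genes that pattern the ventral neural tube: Olig2, Nkx2-2, Nkx6-1, Nkx6-2, Pax6, Dbx1, Dbx2 and Neurog2. An event belonged to a gene when its position lay within the GENCODE span of that gene or within 50 kb on either side, in build mm10. Events of different lists that lay within 100 bp of each other were merged into 1 site. By this rule the windows held 965 of the 1087512 events of the series and 229 of its 377386 merged sites.

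The series measured genomic binding by ChIP-seq in mouse embryonic stem cells, grown as embryoid bodies (EBs) and driven to become spinal motor neurons. Each line carried a single doxycycline (Dox) inducible transgene at the HPRT locus, which gives the line its name: iHoxc9 cells made a tagged HOXC9 once Dox was present. Dox was added to all groups. Most lines carried a Flag tag, but the pooled list of HOXC10 at day 3 includes a V5-tagged line and those of HOXA9, HOXD9 and HOXC13 each include an HA-tagged line. The 42 libraries form 23 groups, of which 21 have an event list and 2 are controls without a list.

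All patterned cells received retinoic acid (RA) and a smoothened agonist (SAG). At day 3, after 24 h of Dox, the full-length factors were HOXA9, HOXD9, HOXC6, HOXC8, HOXC9, HOXC10 and HOXC13, the last made from a human cDNA. The same stage held 4 chimeras of HOXC10 and HOXC13. HOXC13:C10.1 and HOXC13:C10.2 joined the N-terminus of HOXC13 to the homeodomain and C-terminus of HOXC10, HOXC10:C13.1 and HOXC10:C13.2 the reverse, and the forms ending in 2 also took account of a conserved stretch before the homeodomain. A later stage, day 4 after 48 h of Dox, was assayed for HOXC6, HOXC9 and HOXC10, in cultures that contain motor neurons and interneurons. HOXC6 and HOXC9 were assayed in EBs without RA or SAG after 12 h of Dox, called unpatterned EBs here. MEIS was assayed at day 3 in V5-tagged iHoxc6, iHoxc9 and iHoxc10 lines, and day 4 cells of the iHoxc10 and iHoxc9 lines were used for PBX. Cell identity was not checked against markers, since event lists carry no expression values.

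Sonic hedgehog from the floor plate divides ventral progenitors of the neural tube into domains along the dorsoventral axis, and each domain is marked by its own set of transcription factors. OLIG2 marks motor neuron progenitors, NKX2-2 the most ventral progenitors next to the floor plate, NKX6-1 and NKX6-2 a broad ventral territory, and DBX1 and DBX2 the intermediate progenitors that form interneurons, while PAX6 is graded over much of the neural tube. Neighbouring domains repress each other's factors, and NEUROG2 is a proneural factor that drives progenitors to leave the cell cycle as neurons. Hox factors act on the other axis, along the rostrocaudal length of the spinal cord, through a homeodomain that reads short AT-rich motifs, often with MEIS and PBX proteins as partners.

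The authors called events over the pooled libraries of a group, so the lists used here hold no value per library and no test between groups was made. Pools held 9.70 to 98.1 M reads from 1 to 4 libraries, and lists ran from 848 events for PBX in iHoxc10 cells to 128388 for HOXC9 in unpatterned EBs. Longer lists hold more weak events, so ranks within a list were used, with rank 1 for the event with the most ChIP reads, and counts are given for full lists and for HOX lists cut to the 17900 events of the shortest. A gene or site without an event was not called at a q-value under 0.001, which does not show that the factor was absent there. Intervals are 95% Wilson intervals, which take sites as independent and cover counting error only.

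The 8 sites below are those held by the largest number of lists at each gene. A tie, as at Dbx2, was settled by the better median rank. Each sequence is the plus strand of GRCm38, the assembly of mm10, 50 bp to either side of the event with the best rank, with 4 motifs on either strand in capitals. TAAT is the core of central Hox motifs, TTTAT that of posterior ones, TTTAC is a core of HOX13 motifs, and TGATTTAT is a composite of PBX and posterior Hox sequences that contains TTTAT.
Olig2, 38.2 kb upstream, chr16:91187173-91187273: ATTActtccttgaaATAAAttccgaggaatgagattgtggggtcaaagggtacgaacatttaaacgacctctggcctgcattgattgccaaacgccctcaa
Nkx2-2, 5.9 kb downstream of the start, chr2:147188318-147188418: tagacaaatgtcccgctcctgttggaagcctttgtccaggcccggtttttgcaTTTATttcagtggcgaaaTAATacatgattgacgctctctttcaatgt
Nkx6-1, 18.2 kb downstream of the start, chr5:101646749-101646849: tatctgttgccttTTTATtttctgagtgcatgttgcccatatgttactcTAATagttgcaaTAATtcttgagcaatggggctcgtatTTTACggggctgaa
Nkx6-2, 52.0 kb downstream of the start, chr7:139530704-139530804: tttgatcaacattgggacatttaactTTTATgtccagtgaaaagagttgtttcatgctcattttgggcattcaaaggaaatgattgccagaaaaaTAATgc
Pax6, 2.3 kb downstream of the start, chr2:105671184-105671284: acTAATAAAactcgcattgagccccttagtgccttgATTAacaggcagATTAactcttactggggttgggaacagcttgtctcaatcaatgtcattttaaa
Dbx1, 2.4 kb downstream of the start, chr7:49634418-49634518: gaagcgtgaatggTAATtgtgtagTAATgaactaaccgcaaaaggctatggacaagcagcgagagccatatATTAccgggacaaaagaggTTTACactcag
Dbx2, 2.8 kb downstream of the start, chr15:95653081-95653181: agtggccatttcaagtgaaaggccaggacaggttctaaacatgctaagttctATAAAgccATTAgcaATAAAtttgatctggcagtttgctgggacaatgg
Neurog2, 0.4 kb upstream, chr3:127632708-127632808: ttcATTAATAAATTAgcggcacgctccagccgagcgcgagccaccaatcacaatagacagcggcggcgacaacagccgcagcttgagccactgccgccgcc

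None of these 8 sequences holds the composite TGATTTAT, and all 8 hold at least 1 TAAT. TTTAT is present in 7 of them, Dbx1 being the exception, and TTTAC in those of Nkx6-1 and Dbx1. The Nkx2-2, Pax6, Dbx1 and Dbx2 sites lie in introns of their genes, the first of them also in an exon of the antisense transcript 6430503K07Rik. The Nkx6-2 site lies in an intron of Inpp5a, a neighbouring gene, and the Olig2, Nkx6-1 and Neurog2 sites are intergenic.

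The 229 sites were spread unevenly over the genes. Pax6 held 51, Nkx6-1 37, Olig2 and Dbx2 30 each, Neurog2 29, Nkx2-2 21, Dbx1 17 and Nkx6-2 14. Of all sites, 81 lay upstream of the gene start, 67 within the span and 81 beyond the gene end. The side differed by gene, with 20 of 30 Olig2 sites and 12 of 17 Dbx1 sites upstream, 23 of 37 Nkx6-1 sites beyond its end and 23 of 51 Pax6 sites within the gene. By annotation 114 sites were intergenic, 93 intronic and 22 exonic, and 25 lay within 1 kb of a transcription start site (TSS) of the member gene. Windows also reach into other genes, such as Olig1 beside Olig2 and Elp4 beside Pax6, and an event was assigned by distance alone.

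Sites around these genes were shared by more lists than sites of the series in general. A single list held 33.6% of the member sites (77 of 229, interval 27.8 to 40.0), against 45.8% of all sites. At least 10 lists held 12.2% (28 of 229, interval 8.60 to 17.1), against 5.13% of all sites. The 7 full-length factors of day 3 had 6 sites in common, of which 3 were at Nkx6-1 and 1 each at Nkx2-2, Dbx1 and Dbx2. That is 2.62% (interval 1.21 to 5.60), against 0.844% of all sites.

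Every full-length factor of day 3 had an event in the window of all 8 genes. Over all 21938 protein-coding genes with the same flanks, HOXC6 had an event at 45.5%, HOXC10 at 46.9%, HOXC8 at 65.8%, HOXC9 at 70.4%, HOXA9 at 76.5%, HOXD9 at 77.6% and HOXC13 at 84.3%. All 8 genes also had an event of HOXC13:C10.1 (78.0% of all genes), HOXC13:C10.2 (76.8%), HOXC6 at day 4 (75.5%), HOXC9 at day 4 (61.8%), and HOXC6 (78.1%) and HOXC9 (89.3%) in unpatterned EBs. HOXC10:C13.1 and HOXC10:C13.2 reached 7 of 8 genes, without Neurog2, beside 63.3% and 72.4% of all genes. HOXC10 at day 4 reached 6, without Pax6 and Dbx1, beside 63.7%. MEIS reached 7 genes in each line, beside 24.1% of all genes in the iHoxc6 line, 36.8% in the iHoxc10 line and 46.6% in the iHoxc9 line. PBX had 1 event in each line, at Nkx2-2 in iHoxc9 cells and at Olig2 in iHoxc10 cells, from lists that reached 3704 and 2865 of the 21938 genes.

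**Figure D1:**
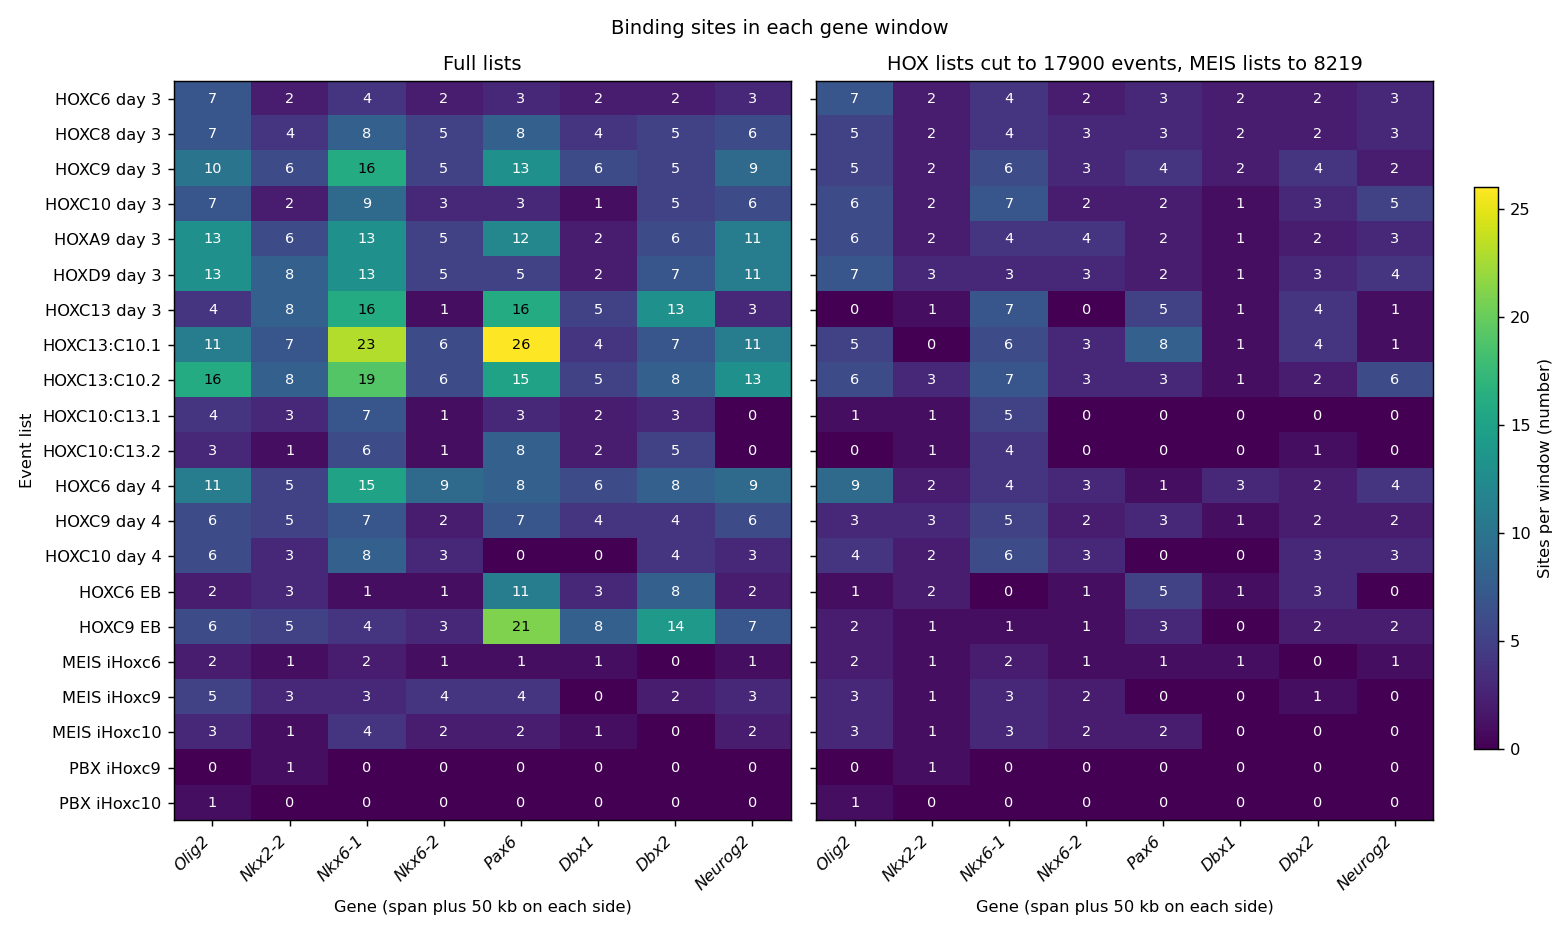
Number of merged sites in each gene window (columns, span plus 50 kb on each side) for each event list (rows), in full lists on the left and with HOX lists cut to 17900 and MEIS lists to 8219 events on the right. In the cut lists HOXC13 has 0 sites at Olig2 and Nkx6-2 and the HOXC10:C13 chimeras have 0 at Nkx6-2, Pax6, Dbx1 and Neurog2, while HOXC6 to HOXD9 have at least 1 site at every gene.

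Olig2, the motor neuron progenitor gene, held the strongest shared site of the set. At the site 38.2 kb upstream, HOXC6 had 1107 ChIP reads against 5.9 control reads, rank 19 of 17900. HOXC8 had 2743 reads there, rank 14 of 44608. HOXC9 had 3389 reads, rank 57 of 74085, and HOXC10 1217 reads, rank 19 of 26873. The other HOX9 paralogs ranked it as high, HOXA9 with 2414 reads at rank 21 of 62916 and HOXD9 with 1458 reads at rank 29 of 56400. Thus 6 of 7 full-length factors placed it in the top 0.106% of their lists, while HOXC13 had no event at the site. Read counts of different lists depend on depth and signal fraction and are not compared with each other. Where a list had several events in a site, the one with the most reads is given.

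The chimeras with the HOXC10 homeodomain ranked this Olig2 site far higher than those with the HOXC13 homeodomain. HOXC13:C10.2 had 4213 reads, rank 40 of 87315, and HOXC13:C10.1 2360 reads, rank 759 of 99311. HOXC10:C13.1 and HOXC10:C13.2, which carry the HOXC13 homeodomain, had 97.4 reads at rank 20386 of 61482 and 66.0 reads at rank 52795 of 86293. The site was in all lists of day 4 HOX factors, at rank 455 for HOXC6, 1101 for HOXC9 and 121 for HOXC10, and MEIS held it in all 3 lines with 125, 161 and 126 reads. Neither list of unpatterned EBs had an event there.

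In unpatterned EBs the leading Olig2 event lay at another place, 44.2 kb upstream of the gene. HOXC9 had 880 reads there, rank 5187 of 128388, and HOXC6 418 reads, rank 3499 of 44751, both against 0 control reads. No list of patterned cells held this site, but HOXA9, HOXD9 and HOXC13:C10.2 held a neighbouring one 44.4 kb upstream with 118, 134 and 110 reads, which lies within 200 bp of it and counts as separate at the merging distance of 100 bp. Among the sites of EB HOXC9 that no list of patterned cells held, it had the best rank of the 8 windows. HOXC6 also had a site 40.7 kb upstream of Olig2 that HOXC9 and HOXC10 lacked at day 3, with 243 reads at rank 1353 at day 3 and 489 reads at rank 3315 of 69297 at day 4. HOXC8 and HOXD9 held that site too, at 34.0% and 58.4% down their lists. The sequences of these sites follow, with that of a MEIS site without any HOX event described further on.
Olig2, 44.2 kb upstream, EB HOXC9 without patterned cells, chr16:91181180-91181280: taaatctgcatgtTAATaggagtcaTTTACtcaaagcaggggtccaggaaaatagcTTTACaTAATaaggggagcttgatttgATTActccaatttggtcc
Olig2, 40.7 kb upstream, HOXC6 without HOXC9 and HOXC10, chr16:91184712-91184812: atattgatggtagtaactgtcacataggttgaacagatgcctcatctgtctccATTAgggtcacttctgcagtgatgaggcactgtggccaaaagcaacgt
Olig2, 33.0 kb upstream, MEIS without HOX, chr16:91192428-91192528: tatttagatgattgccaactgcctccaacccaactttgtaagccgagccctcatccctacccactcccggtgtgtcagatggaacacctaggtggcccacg

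HOXC13 held 4 sites in the Olig2 window, fewer than the 10 of HOXC9 and the 13 of HOXA9 and of HOXD9 from shorter lists, and 0 when lists were cut to equal length. Its leading event, with 160 reads at rank 25918 of 115879, lay 46.1 kb downstream in an untranslated region of Olig1 and was shared with both HOXC10:C13 chimeras and no other list. Of the 10 HOXC9 sites at Olig2, HOXC13 held 0, beside 36.0% of all HOXC9 sites. Olig2 was also one of the genes with events at its own promoter, but these were weak: 3 sites within 1 kb of the TSS were held by 1 or 2 lists each, none above the top 40.2% of its list.

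Nkx2-2, the gene of the most ventral progenitors, had its leading site 5.9 kb downstream of the start. All 7 full-length factors held it, with 214 reads at rank 1728 for HOXC6, 222 at rank 6252 for HOXC8, 423 at rank 6718 for HOXC9 and 171 at rank 4570 for HOXC10. HOXC13 held it with only 50.0 reads, rank 101449 of 115879. The ranks were higher at day 4, at 379 of 69297 for HOXC6 with 1571 reads, 910 of 44024 for HOXC9 with 786 reads and 695 of 22027 for HOXC10 with 397 reads. MEIS held it in all lines, at rank 252 of 8219 in iHoxc6 cells, 1373 of 22749 in iHoxc9 cells and 2059 of 12982 in iHoxc10 cells. It was also the only site of PBX in iHoxc9 cells within the windows, with 20.8 reads at rank 1114 of 1165.

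Another Nkx2-2 site, 1.3 kb upstream in an intron of the antisense gene Nkx2-2os, had 15 lists, among them HOXC13 with 238 reads and both HOXC10:C13 chimeras with 120 and 139 reads. HOXC6 at day 3 lacked it, and HOXC8 held it with 44.9 reads. It was the leading Nkx2-2 event of HOXC13, of HOXC13:C10.1 with 306 reads, and of both HOXC10:C13 chimeras, which had no event at the intronic site.

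Nkx6-1, a marker of the broad ventral territory, had 2 sites that HOXC13 and the HOXC10:C13 chimeras ranked differently from most other factors. At the intronic site 4.2 kb downstream of the start, at position 101660764 of chromosome 5 in mm10, HOXC10 had 1052 reads at rank 29 of 26873, HOXC9 2204 reads at rank 199 of 74085, HOXC8 1041 reads at rank 372 and HOXC6 460 reads at rank 338. HOXA9 and HOXD9 ranked it 327 and 371 with 1000 and 639 reads. HOXC13 held it with 45.4 reads at rank 110778 of 115879, and neither HOXC10:C13 chimera held it, whereas HOXC13:C10.1 had 1985 and HOXC13:C10.2 1353 reads. At the intergenic site 24.8 kb downstream of the start, position 101640176, HOXC10:C13.1 had 1009 reads at rank 99 of 61482, HOXC10:C13.2 975 reads at rank 114 of 86293 and HOXC13 1130 reads at rank 1436. HOXC13:C10.1 ranked this site as high as the other one, with 1995 reads at rank 1101, and HOXC13:C10.2 had 232 reads at rank 16732. HOXC9 had 752 reads at rank 2588, HOXC10 72.0 reads at rank 16917, and HOXC6, HOXC8 and HOXD9 no event.

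The same site at 24.8 kb was held by HOXC9 in unpatterned EBs, with 526 reads at rank 10724, and was the leading event of that list at the gene. The site 4.2 kb downstream had no event in unpatterned EBs and high ranks at day 4, at 100 for HOXC6, 77 for HOXC9 and 61 for HOXC10, the last from 22027 events. MEIS held it in the 3 lines with 97.9, 193 and 163 reads. A further site, 44.3 kb downstream, had 341 MEIS reads in iHoxc9 cells at rank 501 of 22749, the leading MEIS event of the gene in that line, 39.4 MEIS reads in iHoxc10 cells and no MEIS event in iHoxc6 cells. HOXC9 had 475 reads at this site, HOXC10 82.1 reads and HOXC6 at day 3 no event. The promoter of Nkx6-1 was held by 10 lists at 212 bp from the TSS, with the best rank in HOXD9 at 7.95% of the list.

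At Nkx6-1 the HOXC10 site that ranked highest among those without HOXC9 lay 6.9 kb downstream of the start and was held by 7 lists. HOXC13 ranked it in the top 14.3% and HOXC10 in the top 33.3%. Its 101 bases hold a single TTTAT and no TAAT.
Nkx6-1, 6.9 kb downstream of the start, HOXC10 without HOXC9, chr5:101658022-101658122: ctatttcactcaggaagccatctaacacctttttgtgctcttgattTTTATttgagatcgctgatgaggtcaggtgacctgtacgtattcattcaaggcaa

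Nkx6-2, the paralog of Nkx6-1, held 14 sites and its leading event lay far from the gene. The site 52.0 kb downstream of its start, in an Inpp5a intron, had 411 reads for HOXC6 at rank 456 and 849 for HOXC8 at rank 623. Of the posterior factors, HOXA9 had 833 reads at rank 530, HOXC9 828 at rank 2133, HOXD9 375 at rank 1543 and HOXC10 278 at rank 1855. It was a leading site that was present in both lists of unpatterned EBs, with 286 reads for HOXC6 and 911 for HOXC9. HOXC13 and the HOXC10:C13 chimeras lacked it and had 1 site each in the whole window. That site, 40.0 kb downstream, was the same for all 3, with 70.8, 59.5 and 104 reads, and no other list held it.

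**Figure D2:**
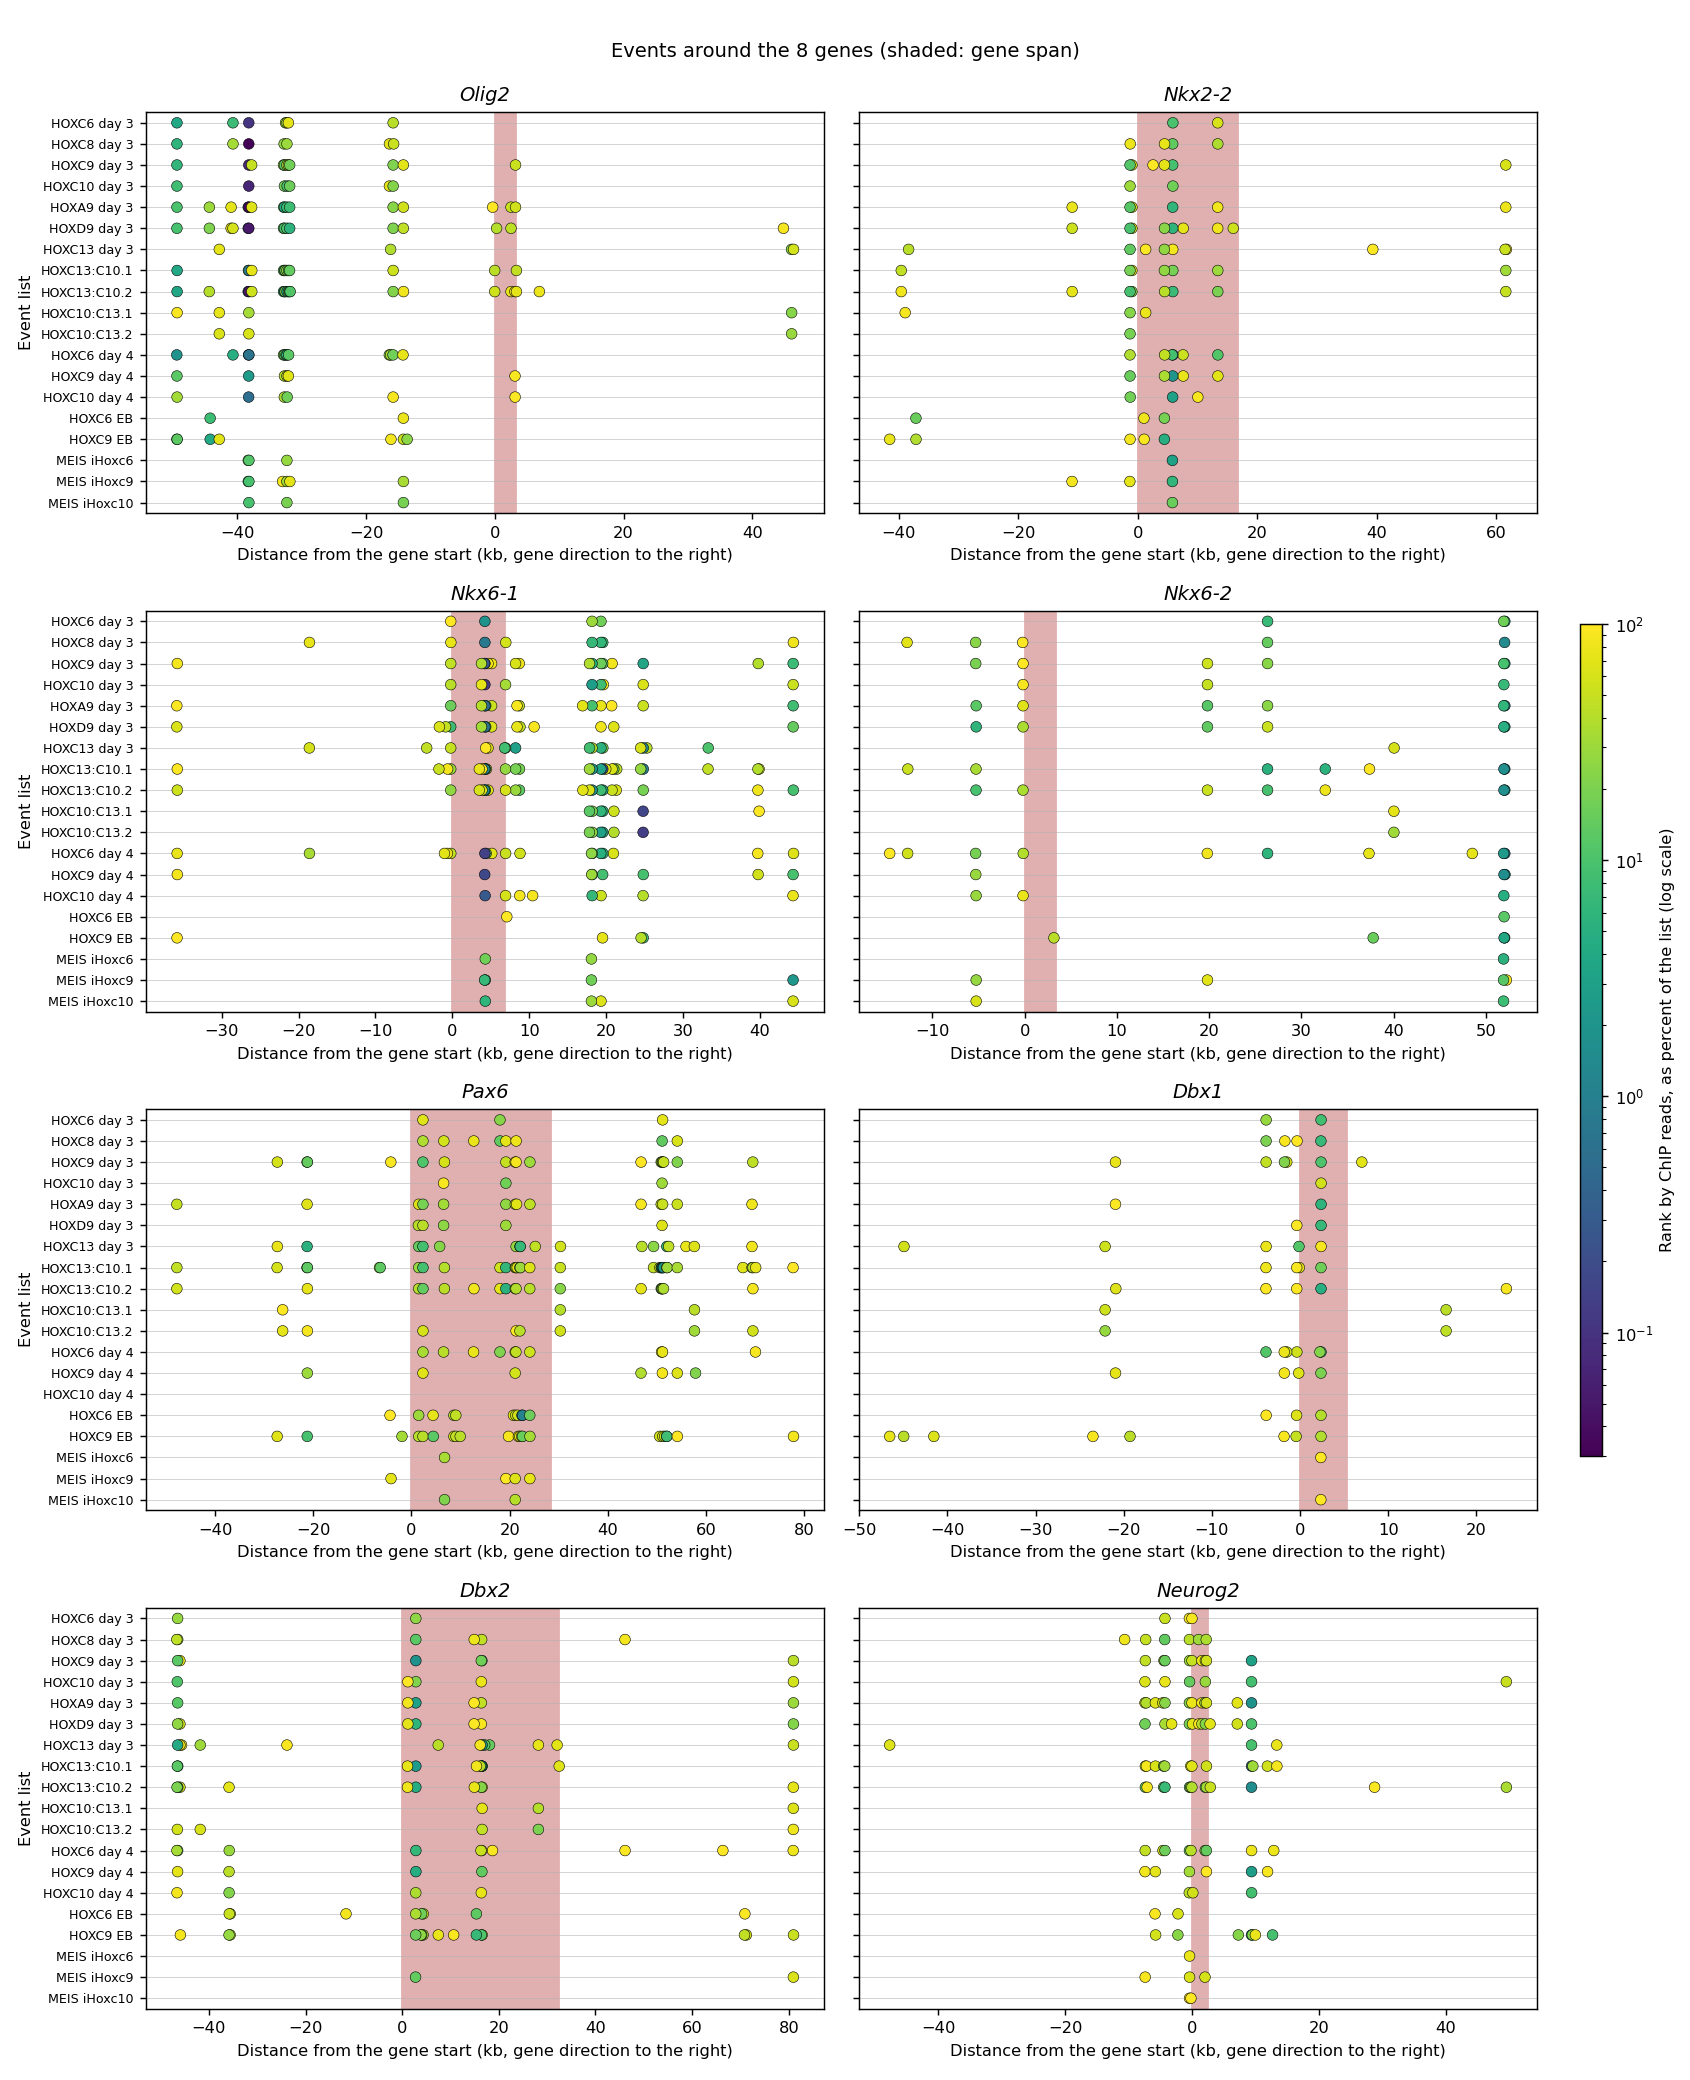
Events of the HOX and MEIS lists (rows) by distance from the start of each gene in kb, with the gene direction to the right, the gene span shaded and the color giving the rank by ChIP reads as percent of the list on a log scale. Events of many lists line up across lists 38.2 kb upstream of Olig2 and 4.2 kb downstream of the Nkx6-1 start, with gaps for HOXC13 and unpatterned EBs at Olig2.

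Pax6 differed from the other genes in lacking a strong shared site. Its most shared site, 2.3 kb downstream of the start and 626 bp from a downstream TSS, was held by 12 lists with a median rank at 36.1% of the list. HOXC9 had 373 reads there, HOXC13 339, HOXC8 97.1 and HOXC6 54.9, and HOXC10 had no event at either stage. The leading Pax6 events of HOXC6 and HOXC8 lay 18.0 kb downstream of the start, with 126 and 223 reads, that of HOXC10 at 19.2 kb with 170 reads and that of HOXD9 at 6.5 kb with 120 reads. HOXC10 held 3 sites at Pax6 on day 3 and 0 on day 4. The best ranked day 3 event of any full-length factor at the gene was that of HOXC13 in the top 5.30% of its list, 21.2 kb upstream in an intron of the antisense gene Pax6os1. HOXC9 held this site without HOXC6 and HOXC10, with 292 reads at rank 11068, and it had the best HOXC9 rank of the 34 such sites in the windows. HOXC13 held 16 Pax6 sites, of which 10 were in no list of another full-length factor at day 3, beside 73.4% of all its sites. The best ranked of the 10 lay 52.0 kb downstream in an intron of Elp4 with 416 reads at rank 7833, and it was also the leading Pax6 event of HOXC9 in unpatterned EBs, with 628 reads at rank 8433.
Pax6, 21.2 kb upstream, HOXC9 without HOXC6 and HOXC10, chr2:105647602-105647702: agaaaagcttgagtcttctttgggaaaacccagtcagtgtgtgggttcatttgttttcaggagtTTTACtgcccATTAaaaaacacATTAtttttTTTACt
Pax6, 52.0 kb downstream of the start, HOXC13 without other full-length factors of day 3, chr2:105720807-105720907: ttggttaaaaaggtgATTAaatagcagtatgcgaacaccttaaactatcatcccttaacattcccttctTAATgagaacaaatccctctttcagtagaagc

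Neither Pax6 sequence holds TTTAT, and the first holds TTTAC at 2 places. In unpatterned EBs Pax6 was the gene with the most sites, 21 for HOXC9 and 11 for HOXC6. HOXC6 had 1508 reads 22.6 kb downstream of the start, in an intron of Pax6 at position 105691515 of chromosome 2, at rank 476 of 44751, and HOXC9 had 317 reads at the same site. No list of patterned cells held it. Of the 3 Pax6 sites of HOXC6 at day 3, its EB list held 0, beside 19.6% of all HOXC6 sites of day 3. For HOXC9 the EB list held 6 of 13, beside 41.1%, but that list is longer, with 128388 events against 44751.

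The most shared sites of Dbx1 and Dbx2 that are printed above lay in introns near the gene starts. At Dbx1, 2.4 kb downstream of the start, HOXC6 had 227 reads, HOXC8 349, HOXC9 387, HOXA9 349 and HOXD9 248, with ranks in the top 5.68% to 10.3% of the lists. HOXC10 had 79.5 reads in the top 55.2% and HOXC13 48.1 in the top 90.8%. This was the only Dbx1 site of HOXC10 at day 3, and there was none at day 4. The leading HOXC13 event was instead at 120 bp from the Dbx1 TSS with 281 reads, a site shared only with HOXC13:C10.1 and HOXC9 at day 4.

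At Dbx2, 2.8 kb downstream of the start, HOXC9 had 1042 reads at rank 1351, HOXA9 482 at rank 1892, HOXD9 265 at rank 3320, HOXC8 239 at rank 5647, HOXC10 149 at rank 5838 and HOXC6 118 at rank 4504. HOXC13 and the HOXC10:C13 chimeras had no event there. HOXC13 held 13 Dbx2 sites and HOXC9 5 in the full lists, and 4 each with lists of equal length. Of the 13, 9 were in no other full-length list of day 3, beside 73.4% of all HOXC13 sites. Its leading event, 16.5 kb downstream of the start, had 860 reads at rank 2444. That site was held by 14 lists, among them HOXC9 with 338 reads. A site 46.5 kb upstream was held by all 7 full-length factors, with 587 reads for HOXC13 at rank 4647. It was the leading Dbx2 event of HOXC10 at day 3, with 222 reads at rank 2885. In unpatterned EBs the leading Dbx2 event of both factors lay 15.4 kb downstream, with 606 reads for HOXC9 and 268 for HOXC6, and among the other lists HOXC13:C10.1 alone held it, with 52.6 reads.

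Neurog2, the proneural gene, held sites at its promoter in many lists. The site at 377 bp from the TSS had 13 lists, with 185 reads for HOXC10 at rank 3983, 161 for HOXC9 at rank 21890, 155 for HOXA9 at rank 13157, 144 for HOXD9 at rank 10570, 88.8 for HOXC8 at rank 18429 and 37.4 for HOXC6 at rank 16591. MEIS held it in all 3 lines with 24.8 to 36.2 reads. The strongest event of the posterior factors lay 9.4 kb downstream of the start, in intergenic sequence at position 127642518 of chromosome 3, with 796 reads for HOXC9 at rank 2315, 603 for HOXA9 at rank 1129, 244 for HOXC10 at rank 2402, 204 for HOXD9 at rank 5605 and 322 for HOXC13 at rank 10966. HOXC6 and HOXC8 had no event there at day 3, their leading event lying 4.3 kb upstream, and HOXC6 at day 4 had 36.2 reads. HOXC9 in unpatterned EBs had 1491 reads at this site, rank 2235 of 128388, and HOXC6 in EBs had none. HOXC13:C10.1 had 3003 reads at rank 418.

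The HOXC10:C13 chimeras had no event in the Neurog2 window, from lists of 61482 and 86293 events. HOXC13 held 3 sites there, against 9 for HOXC9, 6 for HOXC10 and 11 for HOXA9 and HOXD9. Of the 9 HOXC9 sites, 1 was shared with HOXC13, beside 36.0% of all HOXC9 sites. The HOXC13:C10 chimeras held 11 and 13 sites. Of all protein-coding genes, 57.4% had at least as many HOXC13 sites as Neurog2, whereas 8.03% had as many HOXC9 sites and 4.60% as many HOXC10 sites.

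**Figure D3:**
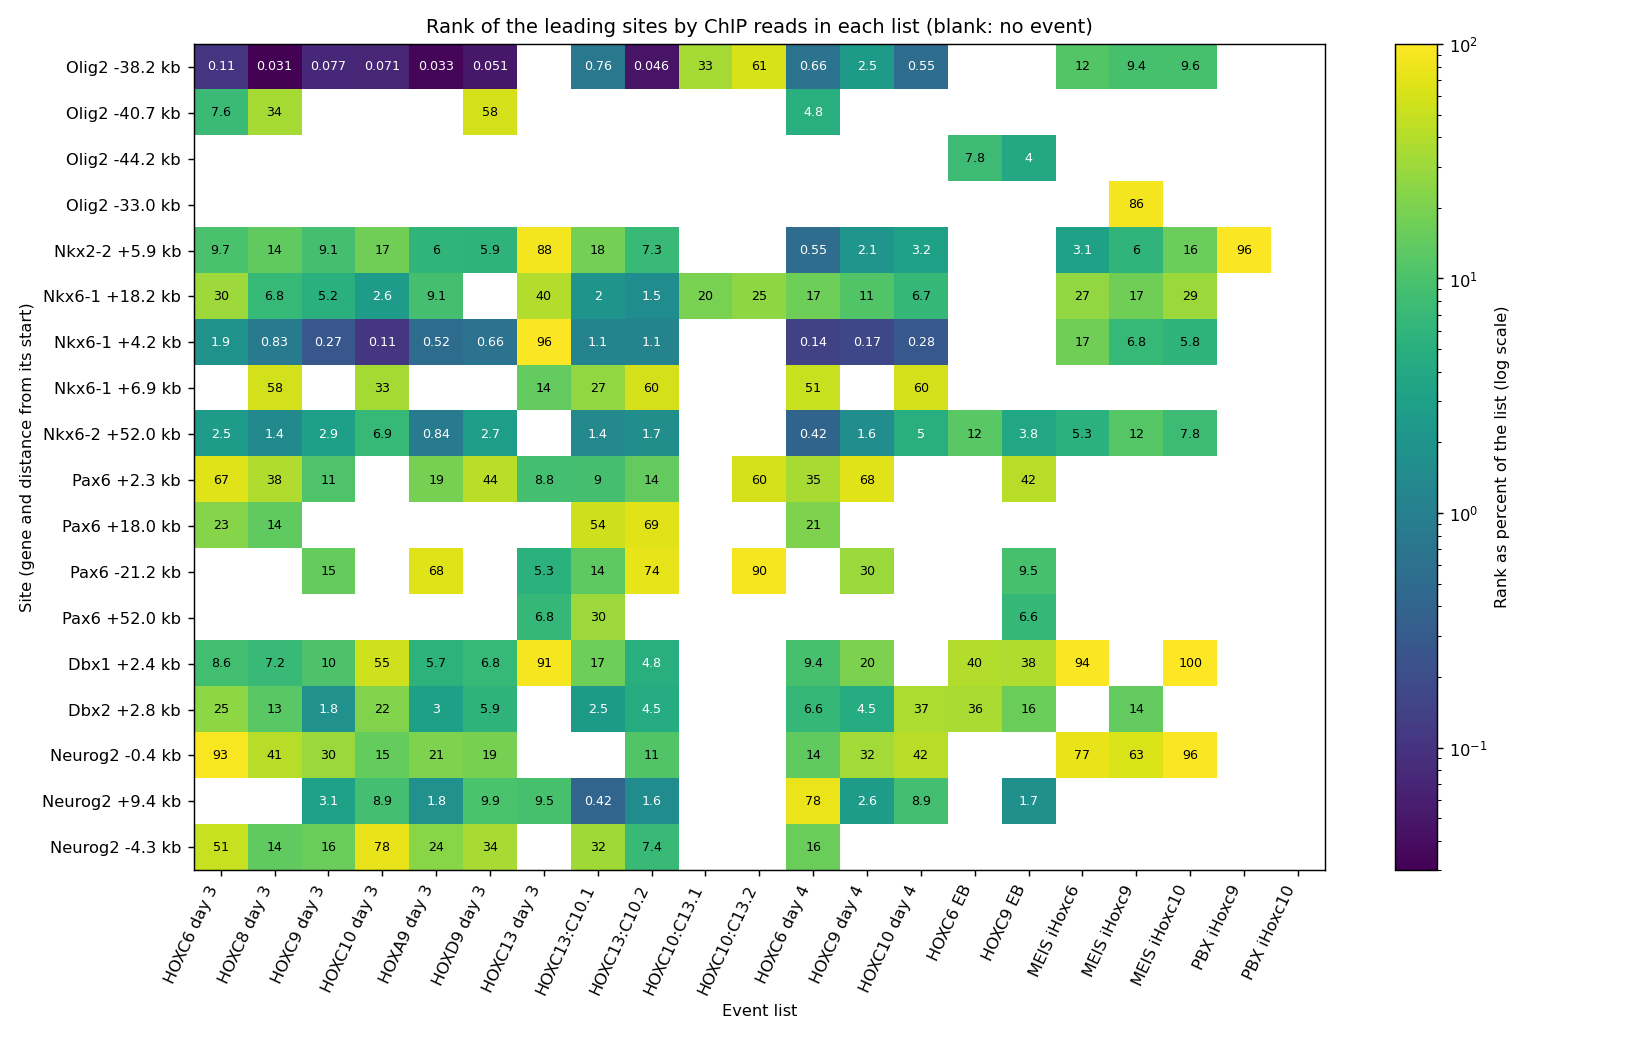
Rank by ChIP reads, as percent of the list, of the leading and printed sites (rows) in each of the 21 lists (columns), on a log color scale with the values printed and blanks where a list has no event. The Olig2 site 38.2 kb upstream is at 0.106% or better in 6 full-length lists and blank for HOXC13, and the row of the Olig2 site 44.2 kb upstream is filled for unpatterned EBs alone, with the neighbouring site 44.4 kb upstream counted apart.

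The first comparison over all 8 genes asked how far the sites of similar factors coincided. Of 36 HOXC10 sites, 31 had a HOXC9 event (86.1%, interval 71.3 to 93.9), beside 83.0% of all HOXC10 sites. In reverse, 31 of 70 HOXC9 sites had a HOXC10 event (44.3%, interval 33.2 to 55.9), beside 30.9%. HOXC10 lacked HOXC9 at 5 of 36 sites (13.9%, interval 6.08 to 28.7), beside 17.0% of all its sites. With lists of equal length the windows gave 64.3% in both directions (18 of 28), beside 46.7% of all HOXC10 and 50.1% of all HOXC9 sites. Both lists then had 28 sites in the windows, so the shares in the 2 directions were bound to be equal.

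HOXC9 shared 51 of its 70 sites with HOXA9 (72.9%, interval 61.5 to 81.9), beside 58.8% of all HOXC9 sites, and 40 of 70 with HOXD9 (57.1%, interval 45.5 to 68.1), beside 44.0%. For HOXC6 in the full lists, the shares in the windows had intervals that held those of the whole list. Of 25 HOXC6 sites, 22 had a HOXC8 event (88.0%, interval 70.0 to 95.8), beside 91.1% of all HOXC6 sites, and 21 had a HOXC9 event (84.0%, interval 65.3 to 93.6), beside 71.3%. With lists of equal length, 76.0% of HOXC6 sites had HOXC8 (19 of 25), beside 67.3%, and 60.0% had HOXC9 (15 of 25), beside 35.5%. HOXC6 without HOXC9 and HOXC10 made up 4 of 25 sites (16.0%, interval 6.40 to 34.7), beside 25.0%, and 2 of these 4 lay at Olig2, which held 7 of the 25. HOXC9 without HOXC6 and HOXC10 made up 34 of 70 (48.6%, interval 37.2 to 60.0), beside 63.7%. By gene, this class held 10 of 13 HOXC9 sites at Pax6, 8 of 16 at Nkx6-1 and 4 of 6 each at Nkx2-2 and Dbx1. At Olig2 it held 3 of 10, at Neurog2 3 of 9, and at Nkx6-2 and Dbx2 1 of 5 each.

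HOXC13 and HOXC9 were compared in the same way. Of 70 HOXC9 sites, 23 had a HOXC13 event (32.9%, interval 23.0 to 44.5), beside 36.0% of all HOXC9 sites. In reverse, 23 of 66 HOXC13 sites had a HOXC9 event (34.8%, interval 24.5 to 46.9), beside 22.4%. HOXC13 held 39 of its 66 sites (59.1%, interval 47.0 to 70.1) without any other full-length factor, beside 73.4% of all its sites. By gene, HOXC13 held 9 of 16 HOXC9 sites at Nkx6-1 and 4 of 5 at Dbx2, and 0 of 10 at Olig2 and 0 of 5 at Nkx6-2. Per 10000 sites of the list, the windows held 5.78 of HOXC13, against 9.85 of HOXC9 and 10.9 to 14.3 of HOXC6, HOXC8, HOXC10, HOXA9 and HOXD9. These densities depend on list length. With lists of equal length the windows held 19 HOXC13 sites, 28 HOXC9 sites and 24 to 28 sites of each of the others.

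The chimeras addressed whether binding around these genes followed the homeodomain and C-terminus or the N-terminus. HOXC13:C10.2 held 34 of the 36 HOXC10 sites (94.4%, interval 81.9 to 98.5), beside 93.8% of all HOXC10 sites, and HOXC13:C10.1 held 27 (75.0%, interval 58.9 to 86.2), beside 74.7%. HOXC10:C13.1 and HOXC10:C13.2 each held 9 of 36 (25.0%, interval 13.8 to 41.1), beside 24.5% and 26.4%. Taken the other way, 27 of 95 HOXC13:C10.1 sites had a HOXC10 event (28.4%, interval 20.3 to 38.2), beside 21.4% of all its sites, and 32 had a HOXC13 event (33.7%, interval 25.0 to 43.7), beside 37.5%. For HOXC13:C10.2, 34 of 90 sites had a HOXC10 event (37.8%, interval 28.5 to 48.1), beside 30.3%, and 25 a HOXC13 event (27.8%, interval 19.6 to 37.8), beside 29.2%. The HOXC13 list held 115879 events and that of HOXC10 26873, so these shares are not comparable with each other. With lists of equal length 53.6% of HOXC13:C10.1 and 71.0% of HOXC13:C10.2 sites had a HOXC10 event, beside 36.9% and 65.3% of all their sites.

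The reverse chimeras held few sites around these genes, 23 for HOXC10:C13.1 and 26 for HOXC10:C13.2, or 3.76 and 3.04 per 10000 of their lists. Of these, 16 of 23 had a HOXC13 event (69.6%, interval 49.1 to 84.4), beside 49.9% of all HOXC10:C13.1 sites, and 21 of 26 (80.8%, interval 62.1 to 91.5), beside 47.1% for HOXC10:C13.2. A HOXC10 event was present at 9 of 23 (39.1%, interval 22.2 to 59.2), beside 10.6%, and at 9 of 26 (34.6%, interval 19.4 to 53.8), beside 8.17%. For both shares with HOXC10 and that of HOXC10:C13.2 with HOXC13, the share of the whole list lay below the interval. The intervals take sites as independent, although several lie in the same window. Of the 9 sites shared with HOXC10, Nkx6-1 gave 4 for each chimera. Dbx2 gave 2 for HOXC10:C13.1 and 3 for HOXC10:C13.2, so these shares rest largely on few genes. With lists of equal length, HOXC13 events were present at 4 of 7 and 4 of 6 sites, beside 13.7% and 16.7%. The shares with HOXC10 were not recounted at equal length.

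**Figure D4:**
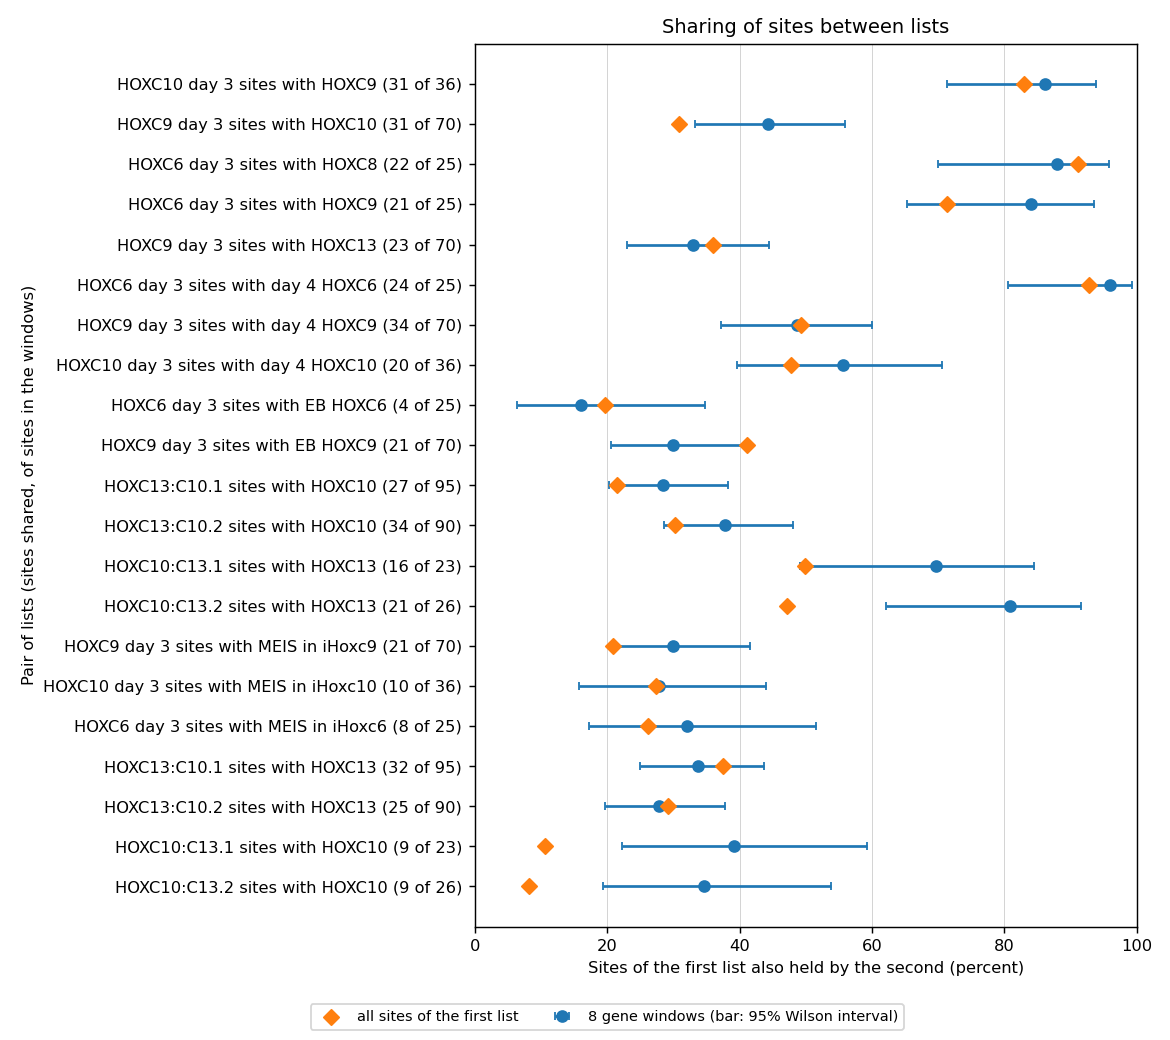
Percent of the sites of the first list that the second list also held, in the 8 gene windows (circles, bars are 95% Wilson intervals, counts in the row names) and over all sites of the first list (diamonds). Among the diamonds outside the bars are those of the HOXC10:C13 chimeras with HOXC10, at 10.6% and 8.17% against 39.1% and 34.6%.

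The next comparison concerned stage. Day 4 HOXC6 held 24 of the 25 HOXC6 sites of day 3 (96.0%, interval 80.5 to 99.3), beside 92.7% of all HOXC6 sites, and held 71 sites in all from a list of 69297 events. Day 4 HOXC9 held 34 of 70 (48.6%, interval 37.2 to 60.0), beside 49.2%, and day 4 HOXC10 held 20 of 36 (55.6%, interval 39.6 to 70.5), beside 47.7%. The 3 shares lay near those of the whole lists when full lists were used. With lists of equal length, HOXC6 gave 84.0% (21 of 25), beside 64.7%. HOXC9 then gave 57.1% (16 of 28), beside 65.1%, and HOXC10 57.1% (16 of 28), beside 54.1%. By gene in the full lists, HOXC10 held 5 of its 7 Olig2 sites and 6 of its 9 Nkx6-1 sites at day 4, and 0 of 3 at Pax6 and 0 of 1 at Dbx1.

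The sites of unpatterned EBs were compared with those of the same factor at day 3. EB HOXC6 held 4 of 25 day 3 sites (16.0%, interval 6.40 to 34.7), beside 19.6% of all HOXC6 sites, and EB HOXC9 held 21 of 70 (30.0%, interval 20.5 to 41.5), beside 41.1%. In reverse, 4 of 31 EB HOXC6 sites (12.9%, interval 5.13 to 28.9) and 21 of 68 EB HOXC9 sites (30.9%, interval 21.2 to 42.6) were held at day 3, beside 7.80% and 23.5%. EB HOXC9 held 32 of its 68 sites (47.1%, interval 35.7 to 58.8) without any list of patterned cells, beside 57.4% of all its sites. The genes differed in this respect. At Nkx6-1 the EB lists had 1 HOXC6 and 4 HOXC9 sites, against 4 and 16 at day 3, and 59.7% of all protein-coding genes had as many EB HOXC9 sites. At Pax6 they had 11 and 21, against 3 and 13, and 5.40% of genes had as many EB HOXC9 sites. With lists of equal length, HOXC9 had 3 Pax6 sites in EBs against 4 at day 3 and 1 Nkx6-1 site against 6, and HOXC6 had 5 Pax6 sites against 3 and 0 Nkx6-1 sites against 4. The larger Pax6 count of HOXC9 in EBs thus did not hold at equal length. The duration of Dox, the depth of the control library and the list length differed between EBs and day 3 as well as the patterning signals, and these cannot be told apart.

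**Figure D5:**
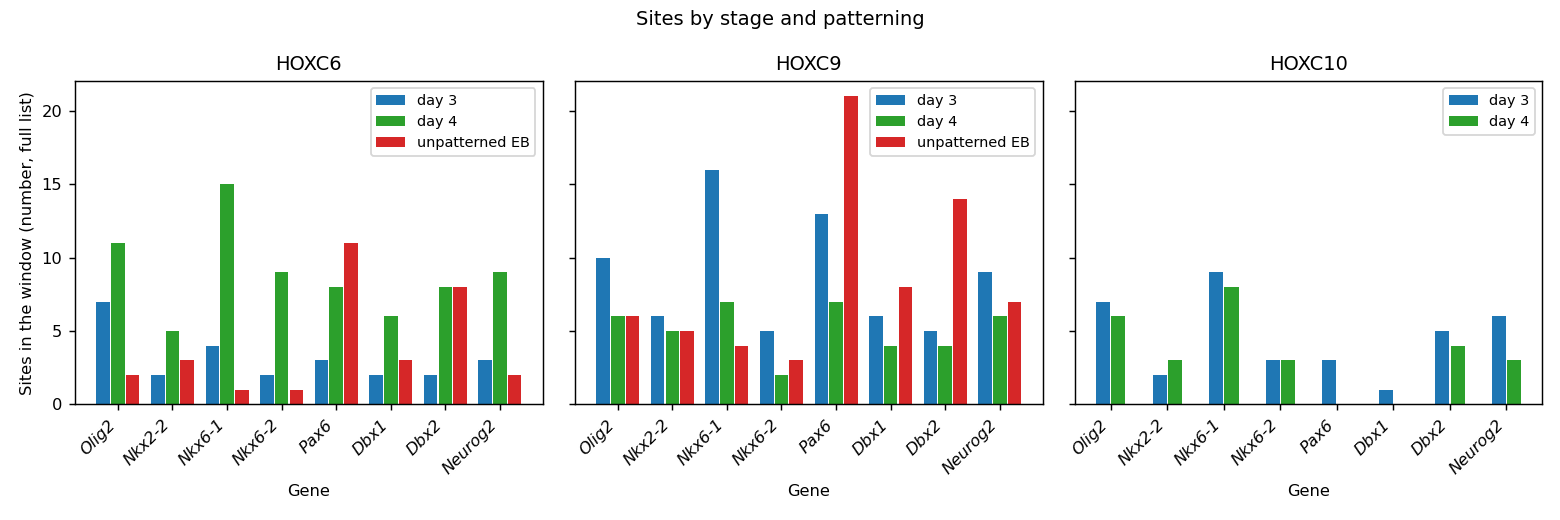
Number of sites per gene window in the full lists of HOXC6, HOXC9 and HOXC10 at day 3, day 4 and, for HOXC6 and HOXC9, in unpatterned EBs. Bars are counts of pooled lists and have no error; for HOXC9 the EB bar is the tallest at Pax6 (21) and Dbx2 (14) and the day 3 bar at Nkx6-1 (16), while lists of equal length gave 3 EB against 4 day 3 sites at Pax6 and 2 against 4 at Dbx2.

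MEIS events lay mostly on Hox sites. In iHoxc9 cells 21 of 24 MEIS sites had a HOXC9 event (87.5%, interval 69.0 to 95.7), beside 68.7% of all MEIS sites of that line. In iHoxc10 cells 10 of 15 had a HOXC10 event (66.7%, interval 41.7 to 84.8), beside 57.8%, and in iHoxc6 cells 8 of 9 had a HOXC6 event (88.9%, interval 56.5 to 98.0), beside 57.5%. Of the Hox sites, 21 of 70 of HOXC9 (30.0%, interval 20.5 to 41.5), 10 of 36 of HOXC10 (27.8%, interval 15.8 to 44.0) and 8 of 25 of HOXC6 (32.0%, interval 17.2 to 51.6) had a MEIS event in their own line, beside 20.9%, 27.4% and 26.2%. Only 2 of 28 MEIS sites (7.14%, interval 1.98 to 22.6) were in no HOX list, beside 11.8%. The better ranked of them, 33.0 kb upstream of Olig2, was at 86.0% of the list in iHoxc9 cells and was not called in the other lines. The MEIS lines were V5-tagged, and each MEIS and PBX list rests on 1 library. PBX had 1 further event, 25.6 reads in a coding exon of Olig2 in iHoxc10 cells, with no other list at that place.

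Pooled over all lists, TAAT, TTTAT and TTTAC were less frequent at these sites than over the series. Within 50 bp, TAAT lay at 65.9% of the 229 sites (interval 59.6 to 71.8), TTTAT at 53.7% (47.2 to 60.1), TTTAC at 23.6% (18.5 to 29.5) and TGATTTAT at 3.93% (2.08 to 7.30). Over all sites of the series the shares were 72.3%, 61.0%, 30.3% and 3.27%, the first 3 above the intervals of the members and the last within it. TAAT lay at 76.0% of the HOXC6 sites in the windows, 68.6% of the HOXC9 sites and 71.2% of the HOXC13 sites, beside 71.0%, 74.7% and 74.7% of these lists. TTTAT lay at 44.0%, 61.4% and 75.8%, beside 38.3%, 62.6% and 78.9%. TTTAC lay at 16.0%, 21.4% and 27.3%, beside 18.2%, 27.7% and 42.8%. Within single lists the direction thus varied. For TTTAT the share in the windows was 61.1% for HOXC10, beside 54.2%, and 76.9% for HOXC10:C13.2, beside 90.1%. For the HOXC13 share of TTTAC, 18 of 66 sites (interval 18.0 to 39.0), the 42.8% of its whole list lay above the interval.

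For the rest of the patterning pathway, a list of 24 other neural tube genes was counted in the same way. An event lay at 22 of 24 for HOXC6 and HOXC8, 23 for HOXC9 and HOXD9, 20 for HOXC10, and 24 for HOXA9 and HOXC13. Of all protein-coding genes, HOXC6 had an event at 45.5%, HOXC8 at 65.8%, HOXC9 at 70.4% and HOXD9 at 77.6%. The shares were 46.9% for HOXC10, 76.5% for HOXA9 and 84.3% for HOXC13. Shh, which encodes the ventralizing signal, had 0 sites of HOXC6, HOXC8, HOXC9 and HOXC10, but 4 of HOXA9, 3 of HOXD9 and 3 of HOXC13. Msx2, a dorsal gene, had 3 sites of HOXC9 and 0 of HOXC6, HOXC8 and HOXC10. The median number of sites per gene was 4.0 for HOXC9 over the list and 7.5 over the 8 ventral genes, against 1 over all protein-coding genes, and for HOXC10 3.0 and 4.0 against 0. In unpatterned EBs the order was the reverse, with medians of 8.0 over the list and 6.5 over the 8 genes for HOXC9 and 4.0 and 2.5 for HOXC6. Over all protein-coding genes the EB medians were 5 for HOXC9 and 2 for HOXC6, so those of the 8 genes lay near them. For HOXC10:C13.1, 18 of 24 genes had an event, beside 63.3% of all genes, and Foxa2, Nkx2-9, Msx1, Gsx1, Prdm13 and Shh had none. The window of Olig1, a list gene, overlaps that of Olig2, and 7 HOXC9 sites lie in it.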

How the data were processed

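The series holds ChIP-seq libraries of 23 groups. According to the methods and the submitters' processing notes, the authors aligned reads to mm10 with Bowtie 1.0.1, keeping reads with a single best position, and called events with MultiGPS over the pooled libraries of a group against 1 control library, at a q-value under 0.001. Picard 2.8.2 and edgeR 3.22.5 are also named in those notes. The deposited lists give for each event the ChIP and control reads as estimated counts, the log2 fold of ChIP over control, and a score that is the log2 of the q-value. Columns in which the authors compared conditions with edgeR, and the tracks that repeat the positions of each pooled list, were not used. Neither the lists nor the tracks hold read counts of single libraries at an event.

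Events of the 21 lists were ranked by ChIP reads within each list, merged within 100 bp over all lists, and assigned to the GENCODE vM21 gene span plus 50 kb. Of the sequences deposited with member events, 855 of 855 were found on either strand of GRCm38 in the stretch around the stated position. Python 3.11.15, NumPy 2.4.6, pandas 2.3.3, SciPy 1.17.1 and matplotlib 3.10.9 were used, and the functions were checked on simulated data. The members and lists were chosen with earlier results of these data known. Named were, for each gene, the site held by most lists, the leading event of each full-length factor and events near the transcription start, and, over all windows, the best ranked site of 6 classes of list membership. Other sites in the text were named after their values were seen. Replicates were pooled in the lists, so shares carry Wilson intervals and no test was made. Alternatives changed the merging distance, the flank, the threshold and the list length.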

Additional observations from a re-analysis of the deposited data

How the results depend on the processing

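No paired analysis was possible because each list gives 1 read count per event over its pooled replicates, as do the tracks made from it, and for the same reason no replicate could be left out. Of 126 alternative values of the main counts and shares, 103 stayed within the interval or within 1.5 times the count, and 23 moved. The number of member sites was 411 with a flank of 100 kb, 58 with the top 10000 events of each list and 90 with lists of equal length. With the top 10000 events, 57.9% of HOXC10 sites had HOXC9 (11 of 19), beside 43.7% of all HOXC10 sites at that setting. The reverse share was 64.7% (11 of 17), beside 47.1%. HOXC6 with HOXC9 was 50.0% (9 of 18), beside 33.7%, and HOXC9 with HOXC13 17.6% (3 of 17), beside 19.3%. HOXC6 and HOXC9 day 3 sites gave 77.8% (14 of 18) and 82.4% (14 of 17) with day 4, beside 65.3% and 62.4%. With unpatterned EBs they gave 5.56% (1 of 18) and 11.8% (2 of 17), beside 7.72% and 17.4%. HOXC13:C10.1 and HOXC13:C10.2 sites with HOXC10 gave 57.1% (12 of 21) and 72.7% (16 of 22), beside 33.6% and 65.1%. With lists of equal length, HOXC10 with HOXC9 and the reverse were both 64.3% (18 of 28), beside 46.7% and 50.1%. HOXC6 with HOXC9 was then 60.0% (15 of 25), beside 35.5%. The same chimeras with HOXC10 gave 53.6% (15 of 28) and 71.0% (22 of 31), beside 36.9% and 65.3%. Merging within 200 bp gave 100% (22 of 22) for HOXC6 with HOXC8 and for HOXC6 with day 4, beside 91.9% and 93.0%. A log2 q under -20 gave 100% (19 of 19) for HOXC6 with day 4, beside 97.3%. For HOXC9 with MEIS it gave 16.4% (10 of 61), beside 16.0%. A flank of 25 kb gave 84.6% (11 of 13) for HOXC10:C13.1 with HOXC13, beside 49.9%. Some of these shares were lower and others higher than in the full lists, and the cause was not tested. The depth of pools and of control libraries, 4.72 to 20.6 M reads, limits what can be called.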

Other observations

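The sequence TGATTG was searched on either strand after the printed sequences had been read, so its choice is not independent of them. It lay within 50 bp of 5 of the 8 most shared sites. Over the 229 sites it lay at 21 (9.17%, interval 6.08 to 13.6), beside 7.03% of all sites of the series. Of the 28 member sites with a MEIS event it lay at 12 (42.9%, interval 26.5 to 60.9), beside 3399 of the 25875 MEIS sites of the series, and of the 201 without MEIS at 9 (4.48%, interval 2.37 to 8.29), beside 6.58%. At the 28 sites held by 10 or more lists it lay at 7 (25.0%, interval 12.7 to 43.4), beside 9.22%. The 8 most shared sites are among these 28, so 5 of the 7 are sequences that had been read. Such sequences are also among the 12 with a MEIS event, so neither share is independent of the choice of TGATTG. These are counts of letters, and no binding of a factor to them was measured.

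Sp8, which encodes a zinc finger factor, held the most sites of the 24 other neural tube genes for HOXC6, HOXC8, HOXC9 and HOXC10 at day 3, with 8, 11, 14 and 11. Pax3, a dorsal gene, held 18 sites of HOXC13 and 5 of HOXC6, from lists of 115879 and 17900 events. For HOXC13 and HOXC6 the medians over the 24 genes were 4.5 and 2.0, and over all protein-coding genes 3 and 0. These 2 counts are thus not comparable with each other.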
